A study of Mus musculus with 4 samples.

Results

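The gene set comprised 9 of the 55403 features counted: the receptor genes Osmr, Il6st, Lifr, Cntfr and Il6ra, the kinase genes Jak1 and Jak2, the transcription factor gene Stat3 and its feedback inhibitor gene Socs3. Members were taken by gene symbol, and each symbol belonged to 1 feature. Their RNA was measured by droplet-based single-nucleus RNA sequencing of pooled, frozen mouse hippocampus in 4 libraries. WT animals carried neither transgene. PS19 animals carried human MAPT with the P301S change (1N4R tau) under the Prnp promoter on a B6;C3 background. TG_PS19 animals carried the PS19 transgene and, in the Rosa26 locus, a SORLA transgene under a CMV/β-actin promoter element. The lines were intercrossed and littermates were used. PS19 was represented by 2 libraries, and WT and TG_PS19 by 1 library each, so no spread was measured within WT or TG_PS19. The number of animals per pool, their exact age and their sex are not given in the sources used here. The sources also leave unstated if the 2 PS19 libraries are separate pools, so p-values rest only on the spread between these libraries, which may be technical. In most classes that spread was pooled over genes, so adjusted p-values are not comparable between classes. The comparison of PS19 with WT asks how the pathway differs in the tau model, and that of TG_PS19 with PS19 asks how it differs when SORLA is also raised.

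Cytokines of the interleukin-6 family signal through receptor chains that share the subunit gp130, encoded by Il6st. OSMR joins gp130 to receive oncostatin M, LIFR joins it to receive leukaemia inhibitory factor, CNTFR adds specificity for ciliary neurotrophic factor, and IL6RA binds interleukin-6 before gp130 is engaged. The kinases JAK1 and JAK2 sit on the receptor tails and phosphorylate STAT3, which then enters the nucleus and activates genes, among them Socs3. The SOCS3 protein binds gp130 and the kinases and dampens the signal. In astrocytes STAT3 is a known regulator of the reactive state marked by Gfap. Phosphorylation was not measured here, so all values below are RNA levels.

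Positions are those of mouse build GRCm38, matched by versioned identifier, and all 9 genes are protein-coding. Osmr (ENSMUSG00000022146.12) lies at chr15:6813577-6874969 on the minus strand, and Lifr (ENSMUSG00000054263.12) lies on the same chromosome at chr15:7090614-7197489 on the plus strand. Il6st (ENSMUSG00000021756.12) is at chr13:112464070-112510086 (plus), Cntfr (ENSMUSG00000028444.17) at chr4:41657498-41697089 (minus) and Il6ra (ENSMUSG00000027947.11) at chr3:89864059-89913196 (minus). Jak1 (ENSMUSG00000028530.14) is at chr4:101152367-101265282 (minus) and Jak2 (ENSMUSG00000024789.13) at chr19:29251828-29313080 (plus). Stat3 (ENSMUSG00000004040.16) is at chr11:100885098-100939540 (minus) and Socs3 (ENSMUSG00000053113.3) at chr11:117966079-117970047 (minus). Of the 9 loci, 3 overlap other genes. Jak1 overlaps Raver2 on the opposite strand, which had 6821 unique molecular identifiers (UMIs, counted RNA molecules) in the nuclei kept, beside 10104 for Jak1. Stat3 overlaps Stat5a on the opposite strand, with 406 UMIs beside 8081, and Il6ra overlaps the antisense gene Gm42809, with 18 UMIs beside 2055. Whether counting used strand is not given in the sources used here, so reads of overlapping genes may not be told apart.

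The promoters of Stat3 and Socs3 are shown because both genes fell in TG_PS19 against PS19 in astrocytes and in oligodendrocytes (below), and because Socs3 is a known STAT3 target. The sequences are from RefSeq (GRCm38.p6), on the gene's own minus strand, 5′ to 3′. For Stat3 the 250 bases before the RefSeq start are given (chr11:100939541-100939790). For Socs3 the window of 250 bases lies inside the annotated gene, and the 165 bases of it farthest from the start and outside annotated exons are given (chr11:117969452-117969616). Capitals mark a match to TTCNNNGAA, a spacing that STAT proteins are known to bind and that reads the same on both strands.
Stat3: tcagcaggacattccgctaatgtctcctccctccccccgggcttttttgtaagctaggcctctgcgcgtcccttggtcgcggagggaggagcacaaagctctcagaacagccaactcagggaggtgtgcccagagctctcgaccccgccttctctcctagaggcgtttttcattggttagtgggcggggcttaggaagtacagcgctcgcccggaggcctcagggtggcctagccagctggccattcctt
Socs3: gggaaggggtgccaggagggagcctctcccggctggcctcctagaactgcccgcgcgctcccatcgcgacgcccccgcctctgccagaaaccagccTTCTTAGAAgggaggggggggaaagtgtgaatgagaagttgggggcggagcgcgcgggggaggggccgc
The Socs3 match, TTCTTAGAA, begins 154 bases before the RefSeq start. Of the 9 members Socs3 was the only one with TTCNNNGAA in a 250-base window, and none held TTC and GAA with 4 free bases between them. Lifr was searched in 2 windows and Cntfr in 6, since they have several starts. All 250 bases of the Osmr window lay in annotated exons of the gene, so the sequence before its annotated start was not searched. Over all 27025 promoters of the table, 1940 (7.18%) held TTCNNNGAA and 1585 (5.86%) held the wider spacing. A match is a description of these letters and was not tested for binding.

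The WT library held 12762 barcodes and 48670533 UMIs, the PS19 libraries 4643 and 4924 barcodes with 20064025 and 26198644 UMIs, and TG_PS19 9719 barcodes with 38971002 UMIs. After filtering, 11458, 4467, 4728 and 8963 nuclei were kept, of which 676, 84, 110 and 866 fell in clusters without a cell class. Only 100 barcodes occurred in more than 1 library, beside 31840 in 1. Human MAPT had 0 UMIs in WT, 17.6 and 18.6 CPM (counts per 1000000) in the PS19 libraries and 12.9 CPM in TG_PS19, and human SORL1 had 65.1 CPM in TG_PS19 against at most 0.368 CPM elsewhere. Both match the labels. TG_PS19 stood apart in another respect: 49.7% of its nuclei held Xist UMIs and no Y-linked UMIs, against 0.112% to 0.236% in the other libraries, so that it mixed both sexes while the others were almost wholly male by this measure. For members called in astrocytes, oligodendrocytes or microglia in a comparison with TG_PS19, values within its nuclei of each kind are given beside the result. Classes were rebuilt from marker genes, and 11 of them had at least 50 nuclei in every library. All class names mean that clusters resembled the class by its markers. Within a class, the level of a gene is its UMIs per 1000000 UMIs of the class (CPM).

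In astrocytes the calls fell on 3 genes: the oncostatin M receptor gene, Stat3 and Socs3. Osmr and Socs3 rose in PS19 against WT, and Osmr, Stat3 and Socs3 fell in TG_PS19 against PS19. The shared subunit Il6st, the other receptors and both kinases did not pass the test. With edgeR's quasi-likelihood test (Benjamini-Hochberg adjusted p under 0.05, termed called), 2 of the 9 members were called in PS19 against WT, both higher, where 0.521% of all 16313 genes tested were called and 0.423% were called higher. In TG_PS19 against PS19, 3 of 9 were called, all lower, against 1.52% of genes called and 0.723% called lower. None of the 9 was called in TG_PS19 against WT by edgeR, where 0.0184% of genes were called. None had an unadjusted p under 0.05 there, and DESeq2 called none. The shares of all astrocyte genes called depended strongly on the setting and were larger under most others, as given in the section on processing. The median log2 fold change over the members was 0.33, −0.19 and 0.11 in these comparisons, beside 0.01, −0.01 and 0.00 over all genes tested. Socs3 and Il6ra passed the low-count filter through the PS19 libraries alone, which favours a higher PS19 level in the members tested. Both comparisons with PS19 use the same PS19 libraries, so they are not independent.

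**Figure D1:**
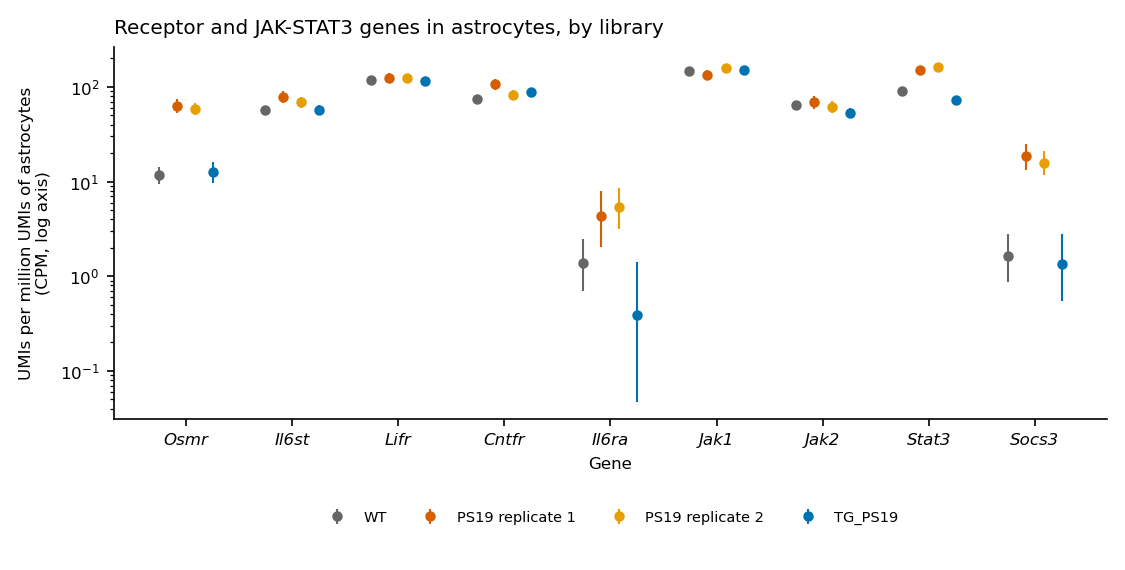
Level of each of the 9 genes in astrocytes by library, in CPM on a log axis, with exact 95% Poisson intervals for counting error. Osmr and Socs3 stand higher in both PS19 libraries (63.2 and 58.6 CPM for Osmr) than in WT (11.8 CPM) and TG_PS19 (12.6 CPM), while Lifr and Jak1 lie close together in all 4.

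Osmr encodes the signalling receptor chain for oncostatin M. Its level in astrocytes was 11.8 CPM in WT (93 UMIs, 95% Poisson interval 9.48 to 14.4), 63.2 CPM in PS19 replicate 1 (147 UMIs, 53.4 to 74.3), 58.6 CPM in PS19 replicate 2 (185 UMIs, 50.4 to 67.6) and 12.6 CPM in TG_PS19 (65 UMIs, 9.75 to 16.1). The PS19 libraries lay far above the other two and did not overlap them, and the WT and TG_PS19 intervals overlapped. The PS19 mean was 60.9 ± 3.29 CPM (SD, n = 2). The log2 fold change was 2.34 (SE 0.17, adjusted p 0.018 by edgeR) for PS19 against WT and −2.09 (SE 0.19, adjusted p 0.016 by edgeR) for TG_PS19 against PS19. For TG_PS19 against WT it was 0.25 (SE 0.23, adjusted p 0.76 by edgeR). At least 1 Osmr UMI was seen in 3.49% of WT astrocytes (exact binomial interval 2.82 to 4.26), 14.5% (11.8 to 17.7) and 14.2% (11.6 to 17.1) of PS19 astrocytes and 3.42% (2.58 to 4.44) of TG_PS19 astrocytes. These shares rest on unequal depth, with median UMIs per astrocyte of 2890, 3713, 4528 and 3057. Thinned to 1000 UMIs per nucleus, which left out 9, 0, 1 and 15 nuclei, they were 1.15%, 5.81%, 5.19% and 0.958%. Dentate granule neurons, which gave the background, held an Osmr UMI in 0.374%, 0.207%, 0.55% and 0% of nuclei (0 of 996 in TG_PS19) at median depths of 6487, 8673, 10256 and 7689 UMIs. Intervals cover counting error only.

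Socs3 encodes the inhibitor that STAT3 induces. It was counted 13 times in WT astrocytes (1.64 CPM), 43 times in PS19 replicate 1 (18.5 CPM), 50 times in PS19 replicate 2 (15.8 CPM) and 7 times in TG_PS19 (1.36 CPM). Again both PS19 libraries stood above WT and TG_PS19 without overlap. The log2 fold change was 3.33 (SE 0.34, adjusted p 0.028 by edgeR) for PS19 against WT, −3.45 (SE 0.40, adjusted p 0.026 by edgeR) for TG_PS19 against PS19 and −0.12 (SE 0.60, adjusted p 0.97 by edgeR) for TG_PS19 against WT. A Socs3 UMI was seen in 0.498% of WT astrocytes, 4.62% and 4.57% of PS19 astrocytes and 0.443% of TG_PS19 astrocytes. Dentate granule neurons held one in 0.0623% to 0.413% of nuclei, at greater depth per nucleus, so these shares are not directly comparable. Their Socs3 level was 0.0897 to 0.451 CPM over the libraries, below the WT and TG_PS19 astrocyte levels, which rest on few UMIs. Within TG_PS19, astrocytes with Y-linked UMIs had 4 Socs3 UMIs (2.53 CPM) and those with Xist had 1 (0.374 CPM). With nuclei thinned to 1000 UMIs, the edgeR fit no longer called Socs3 in astrocytes (adjusted p 0.128 and 0.268), at log2 fold changes of 2.93 and −2.40.

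Stat3 encodes the transcription factor of the pathway. Its astrocyte level was 90.5 CPM in WT (716 UMIs), 151 CPM in PS19 replicate 1 (352 UMIs), 161 CPM in PS19 replicate 2 (507 UMIs) and 72.7 CPM in TG_PS19 (374 UMIs). The PS19 libraries were again the 2 highest, by a smaller step than for Osmr or Socs3. For PS19 against WT the log2 fold change was 0.76 (SE 0.13), which was not called at an adjusted p of 0.077 by edgeR but was called under 11 of 13 other settings. For TG_PS19 against PS19 it was −0.93 (SE 0.13, adjusted p 0.039 by edgeR), a call lost after thinning (−0.61, adjusted p 0.0834). For TG_PS19 against WT it was −0.17 (SE 0.15, adjusted p 0.75 by edgeR). A Stat3 UMI was seen in 20.5% of WT astrocytes, 36.6% and 39.0% of PS19 astrocytes and 17.8% of TG_PS19 astrocytes, and after thinning in 7.80%, 12.5%, 12.1% and 7.41%. Within TG_PS19, Stat3 stood at 88.0 CPM (74.0 to 104) in astrocytes with Y-linked UMIs and 64.0 CPM (54.7 to 74.3) in those with Xist, both below the PS19 libraries. Osmr stood at 12.0 and 13.1 CPM in the same nuclei.

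None of the other receptor genes passed the test in astrocytes. Il6st, the gp130 gene, was at 57.5 CPM in WT, 78.7 and 69.3 CPM in the PS19 libraries and 57.1 CPM in TG_PS19. Its log2 fold change of 0.33 (SE 0.14) for PS19 against WT did not pass the test (adjusted p 0.40 by edgeR). Lifr, the receptor for leukaemia inhibitory factor, was at 118, 124, 125 and 115 CPM in the same order, a range in which no library stood out. Cntfr, the binding chain for ciliary neurotrophic factor, was at 75.3, 107, 82.3 and 88.8 CPM, and the PS19 libraries differed from each other by more than WT differed from the nearer of them. Il6ra was near the limit of detection, with 11, 10, 17 and 2 UMIs. Its level in the PS19 libraries was 12.7 times that in TG_PS19, with a 95% counting interval of 3.18 to 109.9, and the edgeR test did not call it (adjusted p 0.12).

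Neither kinase gene passed the test in astrocytes. Jak1 was at 148 CPM in WT, 134 and 157 CPM in the PS19 libraries and 149 CPM in TG_PS19, and the 2 PS19 libraries were its lowest and highest values. Jak2 was at 64.1, 68.8, 61.1 and 53.6 CPM. The log2 fold changes of PS19 against WT were −0.05 (SE 0.14) for Jak1 and −0.01 (SE 0.14) for Jak2, and those of TG_PS19 against PS19 were 0.21 (SE 0.14) and −0.09 (SE 0.15), none called by edgeR.

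Mural cells, endothelial cells and fibroblasts also hold Osmr. The sums of their markers in astrocytes are given here, and their part in the Osmr result was not tested. All 7 mural markers summed to 323 CPM in WT, 249 and 248 CPM in the PS19 libraries and 217 CPM in TG_PS19, with 1 marker at 0 in PS19 replicate 1. The 8 endothelial markers summed to 31.1, 29.2, 21.5 and 19.2 CPM, with 1 at 0 in PS19 replicate 1. The 7 fibroblast markers summed to 235, 124, 132 and 224 CPM, with 2 at 0 in PS19 replicate 1. The 8 microglial markers summed to 234, 184, 161 and 183 CPM, with none at 0. The 8 astrocyte markers themselves summed to 16763, 15684, 15480 and 16772 CPM.

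Astrocytes fell into 2 clusters, one with low Gfap and one led by Myoc, Gfap and Aqp4. The Gfap-high cluster held 19.8% of WT astrocytes (517 of 2611, exact interval 18.3 to 21.4), 41.7% (244 of 585, 37.7 to 45.8) and 44.1% (289 of 656, 40.2 to 48.0) of PS19 astrocytes and 18.7% (295 of 1580, 16.8 to 20.7) of TG_PS19 astrocytes. The clusters were made without the pathway lists, Gfap among them. Because the cluster shares differed between libraries, levels were also read within each cluster. In the Gfap-low cluster Osmr was at 10.5 CPM in WT, 32.0 and 29.4 CPM in the PS19 libraries and 12.2 CPM in TG_PS19. In the Gfap-high cluster it was at 17.3, 104, 92.8 and 14.7 CPM, so the PS19 libraries were the highest in both clusters. For Stat3 the PS19 libraries were also the highest, at 82.2, 107, 113 and 68.4 CPM in the Gfap-low cluster and 126, 209.7, 216 and 91.3 CPM in the Gfap-high cluster. Socs3 rested on few UMIs in the Gfap-low cluster (7, 7, 6 and 3) and stood at 3.99, 35.6, 30.2 and 4.20 CPM in the Gfap-high cluster.

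**Figure D2:**
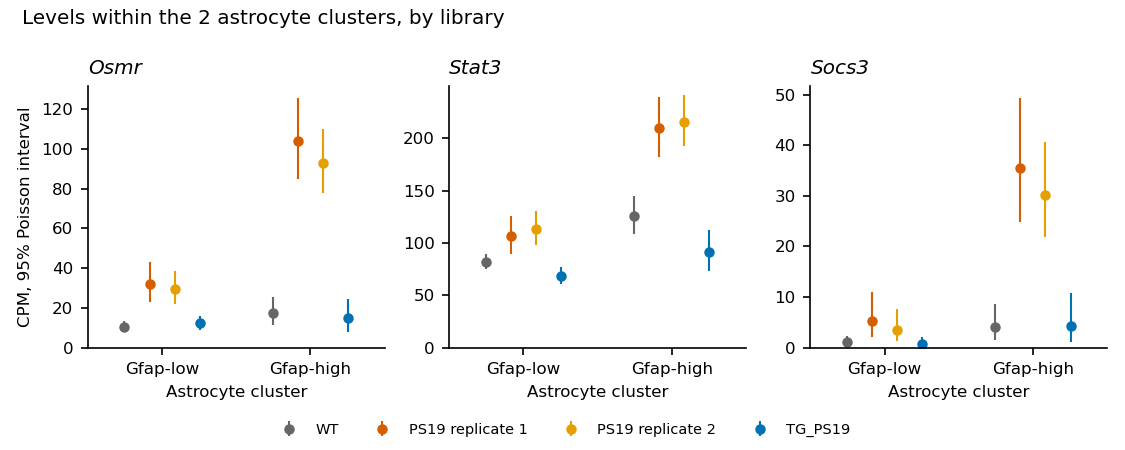
Osmr, Stat3 and Socs3 in the Gfap-low and Gfap-high astrocyte clusters, in CPM of the cluster, by library with exact 95% Poisson intervals. Both PS19 libraries lie above WT and TG_PS19 in both clusters, and their Osmr level in the Gfap-high cluster (104 and 92.8 CPM) is the highest in the plot of that gene.

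Il6st was higher in the Gfap-high cluster than in the Gfap-low cluster in every library, which was not tested. It stood at 41.5, 38.8, 49.3 and 47.5 CPM in the Gfap-low cluster and at 126, 131, 92.8 and 99.7 CPM in the Gfap-high cluster, in the order WT, PS19 replicate 1, PS19 replicate 2 and TG_PS19. In the Gfap-high cluster the highest and the lowest value were those of the 2 PS19 libraries. Without the Gfap-high cluster, edgeR still called Osmr in PS19 against WT (log2 fold change 1.58, adjusted p 1.1e-05) and in TG_PS19 against PS19 (−1.21, adjusted p 0.0026), where 1.27% and 3.09% of genes were called. Stat3 was still called in TG_PS19 against PS19, at a log2 fold change of −0.57 (adjusted p 0.035). Socs3 was not called in that fit, at 1.99 and −2.43 (adjusted p 0.639 and 0.453).

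In oligodendrocytes, the myelin-forming cells, Stat3 and Socs3 rose in PS19 against WT and fell in TG_PS19 against PS19, and Osmr was almost undetected. Here 2 of the 8 members tested were called higher in PS19 against WT, where 7.03% of 16336 genes were called. Of these 2, Socs3 passed the low-count filter through the PS19 libraries alone, which favours a higher PS19 level. Between TG_PS19 and PS19, 3 of 8 were called lower, where 8.94% of genes were called, and none was called by edgeR or DESeq2 in TG_PS19 against WT, against 3.52% of genes. Il6st alone had an unadjusted p under 0.05 in that comparison. The median log2 fold change over the 8 members was 0.01, −0.16 and −0.23, beside 0.00, −0.01 and −0.01 over all genes. Osmr was too low to be tested, with 1, 3, 4 and 4 UMIs in WT, PS19 replicate 1, PS19 replicate 2 and TG_PS19.

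Stat3 in oligodendrocytes was at 61.5 CPM in WT (425 UMIs), 123 CPM in PS19 replicate 1 (603 UMIs), 125 CPM in PS19 replicate 2 (771 UMIs) and 50.03 CPM in TG_PS19 (336 UMIs). The PS19 libraries nearly coincided and lay above the others. The log2 fold change was 1.05 (SE 0.14, adjusted p 7.4e-12 by edgeR) for PS19 against WT and −1.25 (SE 0.14, adjusted p 1.6e-15 by edgeR) for TG_PS19 against PS19. A Stat3 UMI was seen in 10.8%, 22.6%, 28.2% and 9.17% of nuclei, and after thinning to 1000 UMIs in 5.86%, 10.9%, 11.2% and 4.79%. Within TG_PS19 the level was 59.8 CPM in nuclei with Y-linked UMIs and 49.9 CPM in those with Xist.

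Socs3 in oligodendrocytes had 5 UMIs in WT (0.724 CPM), 37 in PS19 replicate 1 (7.55 CPM), 35 in PS19 replicate 2 (5.67 CPM) and 3 in TG_PS19 (0.447 CPM). The gene was thus rare in every library and highest in PS19. For PS19 against WT the log2 fold change was 3.18 (SE 0.58, adjusted p 3.1e-06 by edgeR). The PS19 level was 14.6 times that in TG_PS19, with a counting interval of 4.79 to 72.2, and edgeR called the difference (adjusted p 9.3e-07). After thinning the call was lost for PS19 against WT (adjusted p 0.057). All 3 UMIs of TG_PS19 were in nuclei with Xist. The 8 astrocyte markers summed to 631 CPM in WT oligodendrocytes, 283 and 243 CPM in the PS19 libraries and 467 CPM in TG_PS19. Microglial markers, 8 in number, summed to 229, 159, 116 and 175 CPM, with none at 0. The part of astrocyte or microglial RNA in the Stat3 and Socs3 results was not tested.

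Cntfr was the third member called in oligodendrocytes. It was at 37.6 CPM in WT, 53.1 and 42.6 CPM in the PS19 libraries and 29.2 CPM in TG_PS19, with TG_PS19 the lowest. The log2 fold change was −0.64 (SE 0.16, adjusted p 0.0017 by edgeR) for TG_PS19 against PS19 and 0.38 (SE 0.15, adjusted p 0.13 by edgeR) for PS19 against WT. Within TG_PS19 it was at 30.4 CPM in nuclei with Y-linked UMIs and 25.9 CPM in those with Xist. With the Y-linked nuclei alone the log2 fold change was nearly as large (−0.59) and was not called (adjusted p 0.0701). After thinning it was −0.63 and not called either (adjusted p 0.151). Jak2 had its highest class level in oligodendrocytes and did not pass the test there, at 184, 192, 175 and 164 CPM.

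**Figure D3:**
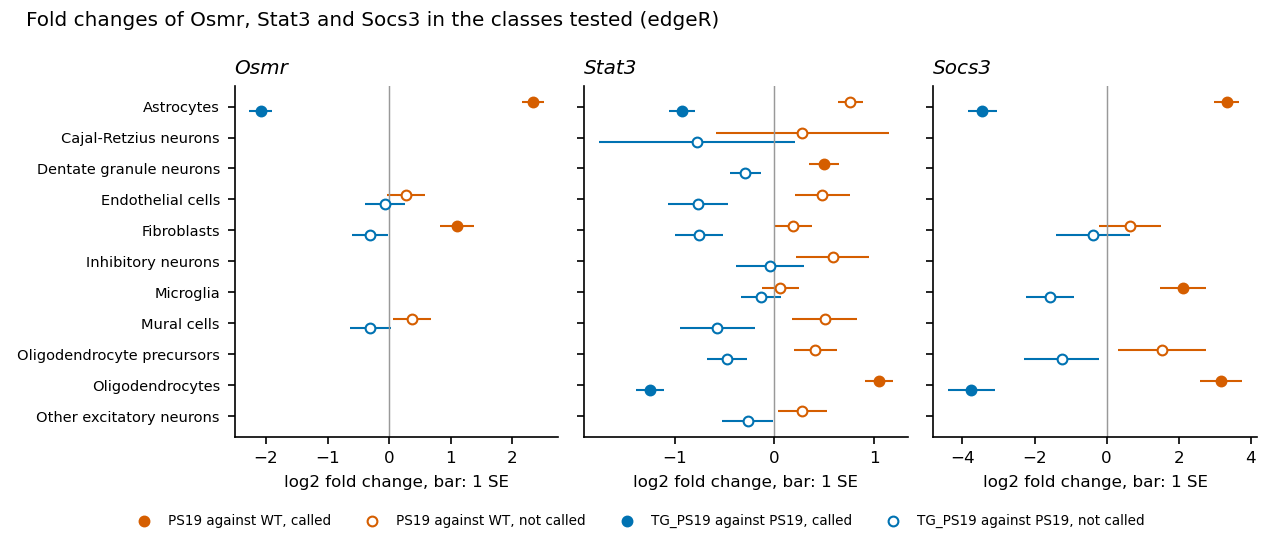
Log2 fold changes of Osmr, Stat3 and Socs3 from edgeR in each class where the gene was tested, with bars of 1 SE; filled points passed an adjusted p under 0.05. Osmr is filled in both comparisons in astrocytes (2.34 and −2.09), while Stat3 and Socs3 are filled in both comparisons in oligodendrocytes (1.05 and −1.25 for Stat3).

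In microglia, the resident immune cells of the brain, Socs3 was called higher in PS19 against WT and 2 receptor genes higher in TG_PS19 against PS19. These calls were lost after thinning, and the receptor calls also with the Y-linked TG_PS19 nuclei alone. Of 7 members tested, 1 was called higher in PS19 against WT, where 9.26% of 10922 genes were called. With 7 genes, 1 call is close to that share, and Socs3 passed the low-count filter through the PS19 libraries alone. In TG_PS19 against PS19, 2 were called higher against 9.75% of genes, and in TG_PS19 against WT 1 was called higher against 1.03%. The median log2 fold change over the 7 members was 0.03, 0.13 and 0.18, beside 0.01, −0.01 and 0.00 over all genes. Socs3 had 6 UMIs in WT (5.86 CPM), 18 and 22 in PS19 (26.7 and 25.4 CPM) and 6 in TG_PS19 (8.11 CPM). Both PS19 libraries were above the others. The log2 fold change was 2.11 (SE 0.64, adjusted p 0.015 by edgeR) for PS19 against WT and −1.57 (SE 0.66, adjusted p 0.12 by edgeR) for TG_PS19 against PS19. The call for PS19 against WT was lost after thinning (1.55, adjusted p 0.493).

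Microglia of different groups came mostly from different clusters. A cluster led by Siglech held 91.3% of WT and 93.1% of TG_PS19 microglia, while a cluster led by Ly86, Fyb and Ptprc held 85.0% and 82.3% of PS19 microglia. Within the Siglech cluster Socs3 was at 6.46 CPM in WT, 36.3 and 41.8 CPM in the PS19 libraries and 8.67 CPM in TG_PS19, from 6, 3, 6 and 6 UMIs, and the 3 UMIs of PS19 replicate 1 came from 1 nucleus. In the Ly86 cluster the PS19 libraries were at 25.3 CPM (15 UMIs) and 22.1 CPM (16 UMIs). WT and TG_PS19 had 0 UMIs there from 52 and 28 nuclei, which allows up to 31.7 and 62.5 CPM, so no difference was detectable in that cluster. The 6 markers of border macrophages summed to 61.6 CPM in WT microglia, 199 and 232 CPM in the PS19 libraries and 90.6 CPM in TG_PS19, with between 0 and 2 of them at 0, and their part in the result was not tested.

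Lifr in microglia was at 88.0 CPM in WT (90 UMIs), 78.5 and 100.5 CPM in PS19 (53 and 87 UMIs) and 161 CPM in TG_PS19 (119 UMIs). TG_PS19 stood above the other libraries. The log2 fold change was 0.92 (SE 0.22, adjusted p 0.00097 by edgeR) against PS19 and 0.95 (SE 0.25, adjusted p 0.021 by edgeR) against WT. Within TG_PS19 it was 103 CPM (16 UMIs, 59.1 to 168) in microglia with Y-linked UMIs and 188 CPM (79 UMIs, 149 to 234) in those with Xist. With the Y-linked nuclei alone the log2 fold change against PS19 was 0.25 (adjusted p 0.855 by edgeR), from 81 nuclei, against 228 with Xist. The call was thus not made without the Xist nuclei, of a sex that the other libraries lack. Sex and the loss of counts cannot be told apart here. Il6ra in microglia was at 321, 274, 298 and 391 CPM. It was called higher in TG_PS19 against PS19, at a log2 fold change of 0.54 (SE 0.16, adjusted p 0.015 by edgeR), and was not called with the Y-linked nuclei alone (0.34, adjusted p 0.558). Within TG_PS19 it was at 349 CPM in nuclei with Y-linked UMIs and 406 CPM in those with Xist. Both receptor calls against PS19 were also lost after thinning (adjusted p 0.119 for Lifr and 0.102 for Il6ra).

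Across the 11 classes and 9 members, 79 of 99 pairs had enough UMIs to be tested. In PS19 against WT 7 were called, all higher, in 3 members and 5 classes, where 2.56% of all gene and class pairs were called. In TG_PS19 against PS19 8 were called, 2 higher and 6 lower, against 4.28% of pairs, and in TG_PS19 against WT 1 was called, against 2.09%. Besides the classes above, Osmr was called higher in PS19 fibroblasts, at 31.0 CPM in WT, 65.2 and 66.2 CPM in the PS19 libraries and 50.9 CPM in TG_PS19. Its log2 fold change was 1.10 (SE 0.27, adjusted p 0.048 by edgeR, where 1.26% of genes were called), and it passed in 4 of 11 other settings. The fibroblast class also held astrocyte markers, whose sum was 5202 CPM in WT, 6280 and 5859 CPM in the PS19 libraries and 6515 CPM in TG_PS19 with none of the 8 at 0, above its own markers at 4148 to 4621 CPM, and their part in the result was not tested. Stat3 was called higher in PS19 dentate granule neurons, at 26.6, 41.5, 33.5 and 28.3 CPM, with a log2 fold change of 0.49 (SE 0.15, adjusted p 0.040 by edgeR, where 3.12% of genes were called). It was not called there after thinning (0.25, adjusted p 0.912).

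**Figure D4:**
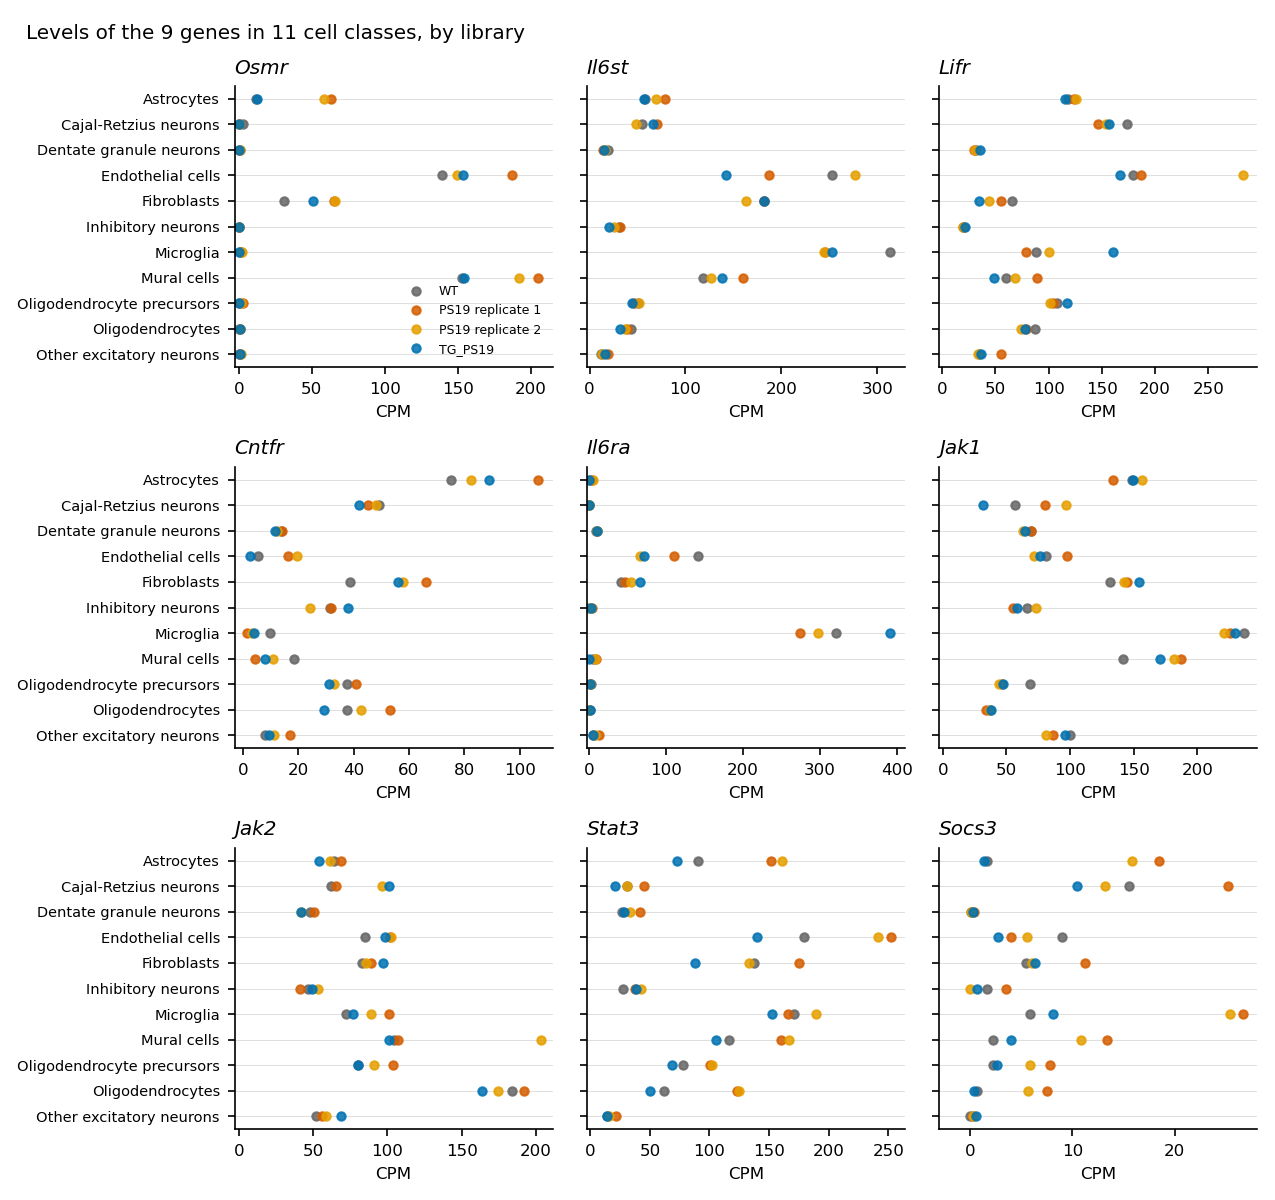
Level of each member in the 11 classes tested, in CPM of the class, 1 point per library. Osmr is highest in mural and endothelial cells (176 and 157 CPM on average), Il6ra in microglia (321 CPM) and Cntfr in astrocytes (88.3 CPM), and both PS19 points for Osmr lie above WT and TG_PS19 in astrocytes, fibroblasts and mural cells.

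Each member had its own order of classes, given here as means over the 4 libraries and as description only, since the clusters were made from the same nuclei. Osmr was highest in mural cells (176 CPM, range 153 to 205) and endothelial cells (157 CPM, 139 to 187), whose ranges overlapped. Fibroblasts (53.3 CPM) and astrocytes (36.5 CPM) followed, apart from both and overlapping each other. All other classes lay at or below 1.19 CPM, with 0 UMIs in inhibitory neurons of every library, which allows up to 5.33 CPM in the smallest of these sums. In mural cells it was at 153 CPM in WT, 205 and 192 CPM in the PS19 libraries and 154 CPM in TG_PS19, and in endothelial cells at 139, 187, 149.6 and 153 CPM. Osmr did not pass the test in either class, with log2 fold changes of 0.38 (SE 0.31) and 0.28 (SE 0.31) for PS19 against WT.

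The partner chains had other orders. Il6st was highest in microglia (264 CPM), followed with overlapping ranges by endothelial cells (215 CPM) and fibroblasts (177 CPM), and was lowest in dentate granule neurons (15.99 CPM) and other excitatory neurons (15.01 CPM). Lifr was highest in endothelial cells (204 CPM) and Cajal-Retzius neurons (158 CPM), which overlapped, and astrocytes came next (121 CPM). Cntfr was highest in astrocytes (88.3 CPM, range 75.3 to 107), apart from fibroblasts (54.8 CPM). Il6ra was highest in microglia (321 CPM), then endothelial cells (97.1 CPM), then fibroblasts (52.6 CPM), each apart from the next, and astrocytes had 2.87 CPM.

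Among the signalling genes, Jak1 was highest in microglia (228 CPM), apart from mural cells (170.0 CPM) and astrocytes (147 CPM), and lowest in oligodendrocytes (36.2 CPM). Jak2 showed the reverse place for oligodendrocytes, which had its highest mean (179 CPM, range 164 to 192), overlapping mural cells (129 CPM). Stat3 was highest in endothelial cells (203 CPM), microglia (169.8 CPM), mural cells (137 CPM), fibroblasts (133 CPM) and astrocytes (119 CPM), with overlap between each and the next, and lowest in other excitatory neurons (16.4 CPM). Socs3 was highest in microglia (16.5 CPM), Cajal-Retzius neurons (16.1 CPM) and astrocytes (9.33 CPM), and its ranges overlapped all along the order. In Cajal-Retzius neurons it was too low to be tested, in sums of only 198572 to 385417 UMIs per library, so its place there rests on few UMIs.

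The changes in astrocytes were set against those in each other class by a test of the difference, with library as a block, which was chosen after the results above were known. Over all genes and classes, 1.77% of such differences were called for PS19 against WT and 1.36% for TG_PS19 against PS19. The rise of Osmr was larger in astrocytes than in endothelial cells by 2.10 on the log2 scale (SE 0.38, adjusted p 5.4e-05 by edgeR), than in mural cells by 2.01 (SE 0.38, adjusted p 0.00063) and than in fibroblasts by 1.18 (SE 0.34, adjusted p 0.033). The fall of Osmr in TG_PS19 against PS19 was likewise larger in astrocytes, by −2.02 (SE 0.41), −1.75 (SE 0.43) and −1.73 (SE 0.38) against endothelial cells, mural cells and fibroblasts. For Stat3 and Socs3 the difference between astrocytes and oligodendrocytes did not pass the test, at −0.33 (SE 0.14, adjusted p 0.22) for Stat3 and 0.12 (SE 1.09, adjusted p 1) for Socs3 in PS19 against WT. The Stat3 change was larger in astrocytes than in microglia, by 0.65 (SE 0.21, adjusted p 0.049).

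A list of 22 genes known as STAT3 targets or astrocyte reactivity genes was also described, and 15 of them were tested in astrocytes. The list was chosen with earlier results of these data known, so its counts of calls are description only. In PS19 against WT 8 were called, all higher: Icam1, Bcl3, Cd44, Junb, Vim, Gfap, C4b and Cebpd. All 8 called in TG_PS19 against PS19 were lower: Icam1, Junb, Bcl3, Vim, Cd44, Gfap, Cebpd and C4b. None of the 15 was called in TG_PS19 against WT. Over all astrocyte genes, 0.521%, 1.52% and 0.0184% were called in these comparisons, shares that were larger under most other settings. The median log2 fold change over the 15 was 2.16, −2.22 and −0.18, beside 0.01, −0.01 and 0.00 over all genes. Some of the 15, such as Icam1, passed the low-count filter through the PS19 libraries alone, which favours a higher PS19 level. Its part in these counts and medians was not tested. Gfap, the intermediate filament of reactive astrocytes, was at 123 CPM in WT, 564 and 551 CPM in the PS19 libraries and 98.7 CPM in TG_PS19. Vim, a second intermediate filament, was at 9.48, 58.1, 55.4 and 8.55 CPM, and Cd44, a hyaluronan receptor, at 10.7, 65.8, 70.6 and 10.5 CPM. In each of these genes the PS19 libraries stood apart from WT and TG_PS19.

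**Figure D5:**
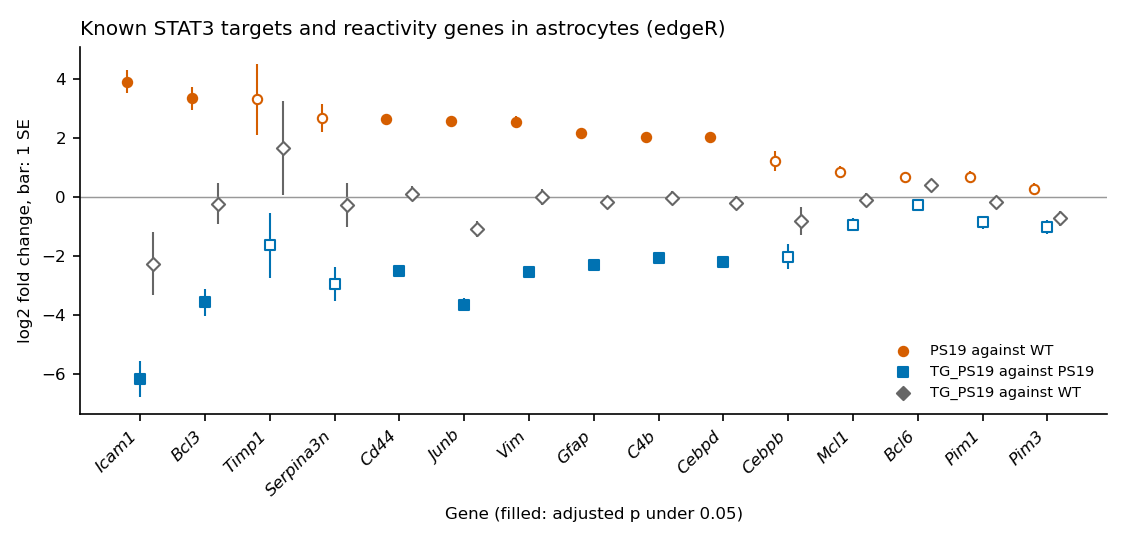
Log2 fold changes from edgeR of the 15 listed STAT3 target and reactivity genes tested in astrocytes, for 3 comparisons, with bars of 1 SE; filled symbols passed an adjusted p under 0.05. The 8 filled genes in PS19 against WT lie above 0 (Gfap 2.16), the 8 filled in TG_PS19 against PS19 lie below 0 (Gfap −2.32), and no symbol is filled for TG_PS19 against WT.

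C4b, a complement component, was at 54.6 CPM in WT astrocytes, 261 and 196 CPM in the PS19 libraries and 48.4 CPM in TG_PS19. Junb, a subunit of the AP-1 transcription factor, was at 13.3, 83.0, 77.6 and 5.63 CPM. Icam1, a leukocyte adhesion molecule, had 9, 37, 61 and 1 UMIs, and its PS19 level was 92.0 times that in TG_PS19 with a counting interval of 16.1 to 3669. Gfap, C4b and Bcl6 had the highest CPM of the list in astrocytes (3′ counts, not scaled by length). Bcl6, a transcriptional repressor, was at 92.7, 163, 141 and 110.2 CPM and was not called (adjusted p 0.11 and 0.37 by edgeR). The acute-phase gene Serpina3n was at 3.92, 36.1, 17.1 and 2.91 CPM and missed the threshold (adjusted p 0.086 and 0.073 by edgeR), with the PS19 libraries unlike each other.

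The same list in oligodendrocytes had 14 genes tested. In PS19 against WT 7 were called higher: C4b, Bcl3, Serpina3n, Cebpd, Junb, Bcl6 and Mcl1. Called lower in TG_PS19 against PS19 were 7: Bcl3, C4b, Serpina3n, Junb, Cebpd, Bcl6 and Pim3. Over all oligodendrocyte genes, 7.03% and 8.94% were called in these comparisons. The median log2 fold change was 1.30, −1.28 and −0.25 over the 3 comparisons, and none was called in TG_PS19 against WT. C4b rose from 31.0 CPM in WT to 309 and 234 CPM in PS19 and was at 22.9 CPM in TG_PS19. Serpina3n was at 3.47, 23.3, 17.7 and 2.08 CPM. Bcl3, a nuclear co-regulator, had 15, 67, 84 and 2 UMIs, a PS19 level 45.8 times that in TG_PS19 with a counting interval of 12.5 to 382. Pim3, a kinase, was at 99.6, 140.0, 102 and 71.6 CPM, and Mcl1, a survival factor, at 26.5, 38.6, 36.3 and 29.6 CPM.

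In microglia 13 genes of the list were tested. Pim1, a kinase, and C4b were called higher in PS19 against WT, and C4b, Junb and Icam1 were called lower in TG_PS19 against PS19. These 2 and 3 of 13 stand beside 9.26% and 9.75% of all microglial genes called. Icam1 was at 98.7, 132, 130.5 and 71.7 CPM and Junb at 90.9, 144, 98.2 and 62.2 CPM, both among the 3 highest of the list there with Mcl1 (134, 129, 135 and 114 CPM). In endothelial cells 10 were tested and none was called, where 0.549% and 0.651% of genes were called in PS19 against WT and TG_PS19 against PS19. Their highest levels were those of Mcl1, Vim and Icam1, at means of 172, 164 and 99.9 CPM.

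The ligands were scarce in these nuclei. Of 11 genes for ligands and their soluble partners, 5 could be tested in astrocytes, 4 in oligodendrocytes, 3 in microglia and none in endothelial cells. Osm, which encodes oncostatin M, had 2, 9, 3 and 1 UMIs in the whole WT, PS19 and TG_PS19 libraries, of which 2, 9, 2 and 0 were in microglia. At this depth no difference in Osm could be shown. Il6 had 10, 7, 11 and 12 UMIs in microglia, and Lif 19, 12, 9 and 10 UMIs in astrocytes, and neither passed the test. Clcf1, a partner in a ligand of the CNTF receptor, was the only one called. It had 5, 16, 28 and 0 UMIs in astrocytes and was called lower in TG_PS19 against PS19 (adjusted p 0.042 by edgeR), by at least 13.8-fold when TG_PS19 is set at the floor of 3 counts. The ligand genes with the highest means were Clcf1 and Lif in astrocytes (4.09 and 3.09 CPM), Ebi3, Il6 and Il27 in microglia (20.6, 12.3 and 11.9 CPM) and Il11, Ctf1 and Ctf2 in oligodendrocytes (2.93, 1.47 and 1.31 CPM). Against WT the PS19 change of Clcf1 was not called (adjusted p 0.076), and in astrocytes Clcf1 passed the low-count filter through the PS19 libraries alone.

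Few other receptor, kinase and inhibitor genes of the family passed the test. Il11ra1, the receptor for interleukin-11, was at 38.9, 37.8, 36.1 and 37.7 CPM in astrocytes, and none of the 3 other receptor genes (Il11ra1, Il27ra and Il31ra) was called in any of the 4 classes examined. Of the 8 other JAK and STAT genes, 6 were tested in astrocytes and none was called. Stat5b, Stat2 and Tyk2 had the most UMIs there, at means of 101.1, 43.7 and 32.3 CPM. In microglia, where 9.26% and 9.75% of all genes were called, 7 were tested. Stat2, a partner in interferon signalling, was called higher in PS19 against WT (30.3, 72.6, 86.6 and 37.9 CPM, log2 fold change 1.39, adjusted p 0.00018 by edgeR) and lower in TG_PS19 against PS19 (−0.99, adjusted p 0.024 by edgeR). Tyk2, a JAK-family kinase, was also called higher in PS19 microglia (0.85, adjusted p 0.0097 by edgeR). Stat6, which acts in interleukin-4 signalling, was called higher in TG_PS19 microglia against PS19 (1.03, adjusted p 0.035 by edgeR). None of these genes was called in oligodendrocytes, with 5 tested, or in endothelial cells, with 6 tested. Stat5b, which acts downstream of growth hormone and prolactin among others, had the highest mean of the list in all 4 classes, at 177 CPM in microglia, 146 CPM in endothelial cells and 51.3 CPM in oligodendrocytes. Stat2 and Tyk2 followed, at 90.3 and 54.1 CPM in endothelial cells and 40.7 and 34.1 CPM in oligodendrocytes.

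Of the 15 other inhibitors, 13 were tested in astrocytes and none was called, and the median log2 fold change was 0.05 for PS19 against WT and −0.15 for TG_PS19 against PS19. Socs2, a relative of Socs3, was at 3.92, 11.2, 11.1 and 2.33 CPM and was not called (adjusted p 0.13 and 0.066 by edgeR). The inhibitors with the most UMIs, Pias1, Pias2 and Ptpn1, averaged 307, 128 and 56.5 CPM in astrocytes. In microglia 1 of 13 was called, Socs6, higher in PS19 against WT (0.81, adjusted p 0.034 by edgeR), beside 9.26% of all microglial genes. In oligodendrocytes, where 7.03% and 8.94% of all genes were called, 11 were tested, and Ptpn11, a phosphatase that binds activated receptors, was called higher in PS19 against WT (167, 259.6, 263 and 179.6 CPM, log2 fold change 0.69, adjusted p 6.8e-06 by edgeR) and lower in TG_PS19 against PS19 (−0.48, adjusted p 0.0041 by edgeR). Pias4 was called lower in TG_PS19 against PS19 there (−0.57, adjusted p 0.028 by edgeR). None of 10 was called in endothelial cells. The inhibitors with the most UMIs were Pias1, Ptpn1 and Pias2 in microglia (means of 373, 262 and 171 CPM), Ptpn11, Pias1 and Pias2 in oligodendrocytes (217, 182 and 109.6 CPM) and Pias1, Pias2 and Socs2 in endothelial cells (219, 125 and 88.9 CPM).

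For each member the genes with the most similar mean log2(CPM + 1) over the 11 classes were named by Pearson's r across classes among 12867 genes, as description, since classes share libraries and depth. Osmr was closest to Fzd6 (r = 0.975), Itga1 (0.971) and Kank2 (0.966). Il6st was closest to Cwf19l2 (0.985), Tm9sf2 (0.982) and Sparc (0.977), and Stat3 to Tcn2 (0.984), Nek7 (0.975) and Chchd1 (0.972). Lifr was closest to AU022252 (0.965), Patz1 (0.898) and Topbp1 (0.896), and Cntfr to Mccc1 (0.927), Zfp383 (0.922) and Neo1 (0.920). Il6ra was closest to Ubtd1 (0.953), Taok1 (0.941) and Sp110 (0.932). For the kinases these were Mmgt2 (0.922), Map3k14 (0.918) and Ccdc80 (0.914) for Jak1, and Tjap1 (0.970), Gatm (0.946) and Ctbp1 (0.941) for Jak2. Socs3 was closest to Epc2 (0.948), 5430405H02Rik (0.947) and Cep63 (0.947).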

How the data were processed

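The authors deposited UMI counts per gene and nucleus, with 1 matrix per library. Per the labels' protocols, nuclei were run on a 10x 3′ kit (version 3.1), and per the file headers and the submitters' processing notes Cell Ranger 7.1.0 and build GRCm38 were used. Nuclei needed at least 500 UMIs, 300 genes and at most 5% mitochondrial UMIs. Doublets were scored against simulated ones, and 1303, 172, 194 and 756 barcodes were removed from WT, PS19 replicate 1, PS19 replicate 2 and TG_PS19. Nuclei were clustered (2000 variable genes without 68 pathway genes, 30 components, 15 neighbours, Leiden resolution 1.0). Clusters were named only where at least 4 markers were raised, or 3 of a short marker list. A cluster of 297 nuclei was named CA1 neurons on 3 raised markers. The classes are thus rebuilt and not the authors'. Clusters resembling CA1 neurons were merged with other excitatory neurons after the clusters had been seen.

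Counts were summed per class and library and tested with edgeR 4.0.16 (quasi-likelihood, TMM scaling, low-count filter) over all 4 libraries. The filter can keep a gene that is high enough in 1 library only. In astrocytes, oligodendrocytes and microglia Socs3 was kept through the PS19 libraries alone. The 1 residual degree of freedom comes from the PS19 pair, so WT and TG_PS19 are assumed to vary like PS19. edgeR drew the spread of each gene towards that of all genes of the class. The prior degrees of freedom were 5.33 in astrocytes, 19.9 in fibroblasts and infinite in the other classes, where a gene's own spread had no weight. Adjusted p-values and shares of genes called thus differ between classes for this reason too. Adjustment was by Benjamini-Hochberg within class and comparison, at 0.05. The SE is the log2 fold change divided by the root of F. The PS19 libraries differed by more than sampling noise (chi-square per degree of freedom 1.57 in microglia to 3.07 in oligodendrocytes). The scripts were tested on simulated data.

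The members and lists were chosen with earlier results of these data known. The text names the members, and of each other list the genes called and those with the 3 highest levels, in astrocytes, microglia, endothelial cells and oligodendrocytes; some ligand values under this rule are not reported here. Likeness was computed for members with at least 100 UMIs over genes reaching 20 CPM in a class. Alternatives were other scalings, filters, priors and clusterings, DESeq2 1.42.0, thinning to 1000 UMIs, and TG_PS19 nuclei of 1 sex. The test of differences between classes was chosen after the results were seen. Protein sequences were not used here.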

Additional observations from a re-analysis of the deposited data

Results flagged for a closer look

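Some effects in astrocytes differed from those in another class by edgeR's test of the difference itself, with library as a block and adjustment over all genes of the pair of classes. All values are astrocytes minus the other class on the log2 scale. This test was chosen after the results by class had been seen, and both comparisons share the PS19 libraries.

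For Osmr in PS19 against WT the difference was 2.104 against endothelial cells (adjusted p 5.4e-05), 2.014 against mural cells (adjusted p 0.00063) and 1.181 against fibroblasts (adjusted p 0.033). In TG_PS19 against PS19 it was −2.022 (adjusted p 0.00045), −1.754 (adjusted p 0.034) and −1.732 (adjusted p 0.0013) against the same classes. Stat3 differed from microglia by 0.654 (adjusted p 0.049) and Il6st by 0.6355 (adjusted p 0.045) in PS19 against WT. The same difference for Stat3 in TG_PS19 against PS19 did not pass, at −0.75 (adjusted p 0.054). In TG_PS19 against PS19, Lifr differed from microglia by −0.8146 (adjusted p 0.041) and Cntfr from oligodendrocytes by 0.76 (adjusted p 0.0029).

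Il6ra rests on 11, 10, 17 and 2 UMIs in astrocytes of WT, PS19 replicate 1, PS19 replicate 2 and TG_PS19. Its differences in PS19 against WT were 2.519 against endothelial cells (adjusted p 0.029), 1.876 against microglia (adjusted p 0.018) and 3.89 against oligodendrocytes (adjusted p 0.021). In TG_PS19 against PS19 they were −3.733 against fibroblasts (adjusted p 0.0024), −3.847 against microglia (adjusted p 9.7e-05) and −5.11 against oligodendrocytes (adjusted p 0.023). Oligodendrocytes too had few Il6ra UMIs, at 0.324 to 1.74 CPM over the libraries, so those differences rest on low counts on both sides. In the fit with oligodendrocytes, Il6ra passed the low-count filter through PS19 astrocytes alone, which favours a higher PS19 level in astrocytes. The microglial change of Il6ra between TG_PS19 and PS19 was itself not called with the Y-linked nuclei alone.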

How the results depend on the processing

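Beside the 7, 8 and 1 pairs of member and class called by edgeR in PS19 against WT, TG_PS19 against PS19 and TG_PS19 against WT, DESeq2 made 3, 4 and 0 calls, and thinning to 1000 UMIs gave 3, 3 and 0. Thinning lost 11 of the reported calls, and 1 of its calls in PS19 against WT, Stat3 in astrocytes, was not among them. In TG_PS19 against WT the count was also 0 with library totals only, without the low-count filter and with doublets kept, and 2 with TG_PS19 nuclei holding Xist alone. In that comparison 10 pairs had an unadjusted p under 0.05 in the reported fit. No result reversed. Osmr in astrocytes was called in 13 of 13 settings in both comparisons with PS19 (1.58 to 2.41 and −2.62 to −1.21), and Stat3 in oligodendrocytes in 12 of 12. Cntfr in oligodendrocytes held in 9 of 12 settings, Lifr in microglia in 8 of 12 against PS19 and 6 of 12 against WT, Il6ra in microglia in 6 of 12 and Osmr in fibroblasts in 4 of 11. DESeq2 gave no adjusted p for Socs3 in oligodendrocytes and microglia or for Osmr in fibroblasts. Without 1 of the PS19 replicates, which leaves no residual degree of freedom and so no test, Osmr in astrocytes ranged from 2.30 to 2.39 and from −2.14 to −2.06, and Stat3 in dentate granule neurons from 0.36 to 0.64. Calls over all genes in astrocytes depended most on the setting: 85, 248 and 3 as reported, against 929, 1449 and 359 with relative log expression scaling, 950, 1493 and 353 with a robust prior, 945, 1770 and 394 with library totals, 944, 1391 and 280 with no filter, 494, 974 and 46 with doublets kept, 359, 711 and 20 at resolution 2.0, 283, 529 and 5 with adjusted residual degrees of freedom, 277, 522 and 5 with pathway genes among the variable genes, 234, 463 and 153 after thinning and 93, 206 and 14 with DESeq2. The cause was not tested. With library totals the median over all astrocyte genes lay at −0.19 in TG_PS19 against PS19. No paired analysis was possible because only PS19 has replicate numbers.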

Other observations

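Clusters left without a tested class also held members, given here as values. In a cluster led by Adgrv1, Siah3 and Shroom3 (164, 24, 31 and 81 nuclei in WT, PS19 replicate 1, PS19 replicate 2 and TG_PS19), Osmr had 3, 5, 7 and 0 UMIs. A cluster led by Sntb1, Gm34838 and Fabp7 held 283 WT nuclei and 1 TG_PS19 nucleus, and its WT levels were 44.8 CPM for Osmr, 169 CPM for Stat3 and 236 CPM for Lifr. After doublets were removed, choroid plexus nuclei remained in PS19 and TG_PS19 (24, 24 and 33 nuclei) and none in WT. With doublets kept, their cluster held 40, 25, 25 and 41 nuclei in WT, PS19 replicate 1, PS19 replicate 2 and TG_PS19. Among the nuclei that remained, Il6ra was at 135, 148 and 120.4 CPM, and no Osmr UMI was counted.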
